A study of Mus musculus with 9 samples.

Results

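The cytosolic chaperones are the proteins that fold new and damaged proteins outside the organelles, and they work as machines with distinct parts. HSP70 proteins bind stretches of unfolded chains, J proteins deliver those chains and start ATP hydrolysis, and nucleotide exchange factors reset the cycle. HSP90 takes over clients that are nearly folded, protein kinases and steroid receptors above all, with the help of co-chaperones. TRiC, a double ring built from distinct subunits, encloses actin, tubulin and other clients, and prefoldin hands nascent chains to it. HSF1 is the transcription factor that raises many of these genes after heat or proteotoxic stress. FLT3-ITD, the receptor switched off here, is itself a known HSP90 client.

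The genes described were chosen by symbol from a list of 38 members of these machines, of which 36 were found among the 24756 rows of the count table. Of these, 33 passed the filter on low counts and were tested together with all 10215 genes that did. Hspa1a, Hspa1b and Hspb1 had too few counts to test, and Hspa8 and Cct6a were not analysed here. The tested members were 2 HSP90 genes, 5 HSP90 co-chaperones, 7 TRiC subunits, 5 prefoldin subunits, 5 J proteins, 4 HSP70 co-chaperones (St13 and the BAG genes), 2 HSP110 genes, the 2 parts of the ribosome-associated complex and Hsf1.

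Transcript levels come from sequencing of the 3' ends of polyadenylated RNA in 9 libraries of a mouse acute myeloid leukaemia line made from fetal liver cells. All libraries carry a constitutive MSCV-Luc2-IRES-MLL-AF9 vector and an inducible TRE-tight-DsRED-IRES-FLT3-ITD vector. The ON group (n = 3) stayed in 1 µg/mL doxycycline, which keeps FLT3-ITD expressed. The OFF24 and OFF48 groups (n = 3 each) were washed and cultured without the drug for 24 h and 48 h. Every OFF library lacks both the drug and the FLT3-ITD expression it induces, and the effects of these cannot be told apart, while the line is a single engineered population. Whether replicates were grown as separate cultures is not stated, so the p-values reflect only how far these samples differ, which may be technical.

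The shallowest library, OFF48 replicate 2, held 1329296 counts and the deepest, ON replicate 2, held 4038456. A floor of 3 counts, which covers counting error only, stood for 2.25 and 0.737 CPM (counts scaled to library size) in these. Levels are CPM after TMM scaling between libraries, given per library or as mean ± SD over 3 libraries. Changes are log2 fold changes with an approximate standard error (SE), and a gene is called when its edgeR quasi-likelihood p, adjusted over all 10215 genes by Benjamini-Hochberg, is under 0.05. The myeloid markers fixed for the line summed to between 3592 and 3811 CPM in ON, 5483 and 5874 in OFF24 and 6468 and 7385 in OFF48. Not every gene of this list rose. Against ON, Cebpa, Mpo, Elane, Prtn3, Csf1r, Itgam, Myb and Meis1 were called higher at both times, Spi1 only at 48 h and Hoxa9 only at 24 h. Ptprc and Ctsg were called at neither time, and Kit did not pass the filter. The part of these markers in the results below was not tested. Summed lymphoid and erythroid markers reached at most 1.5 CPM in any library, with 2 of 7 and 4 of 8 genes at 0 counts throughout. The 8 megakaryocyte and mast cell markers summed to 15.5 to 20.0 CPM in ON, 25.7 to 29.5 in OFF24 and 9.75 to 18.7 in OFF48, with Ppbp, Cma1 and Cpa3 at 0 counts. Most of that sum was Mcpt8, at 4.59 to 7.12, 15.2 to 19.8 and 6.0 to 12 CPM, and Gata2, at 7.61 to 12.2, 4.08 to 10.4 and 0.750 to 3.79 CPM. The 9 hepatocyte and stromal markers summed to 26.1 to 35.5, 41.8 to 58.4 and 54.0 to 62.4 CPM, with Alb, Ttr and Cdh5 at 0 counts. Nearly all of it was Pecam1, at 24.0 to 33.7, 40.1 to 55.9 and 52.7 to 56.3 CPM. The part of these lists was not tested either.

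At 24 h, 21 of the 33 tested members were called lower and 0 higher, against 17.4% lower and 17.8% higher among all tested genes. At an unadjusted edgeR p under 0.05, 26 were lower and 0 higher, DESeq2 called 0 higher, and 30 of the 33 had a negative log2 change. Shares over all tested genes were taken for adjusted calls only. The members' median was -0.49 on the log2 scale and that of all tested genes was 0.03. At 48 h, 25 of 33 were called lower and 1 higher, against 23.9% and 23.4% of all tested genes, with medians of -0.84 and 0.01. There the unadjusted edgeR p was under 0.05 for 25 lower and 2 higher, DESeq2 called 0 higher, and 29 had a negative log2 change. Both comparisons use the same 3 ON libraries. Between the OFF groups, 11 of 33 members were lower at 48 h than at 24 h and 0 higher, against 11.2% and 9.99% of all genes. At an unadjusted edgeR p under 0.05, 16 were lower and 1 higher between the OFF groups, and DESeq2 called 0 higher. Abundant genes are called more often, so the share was also taken at a mean of at least 50 CPM. Of the 26 members at that level, 18 were called lower at 24 h and 20 at 48 h, where 22.1% and 30.3% of all genes at that level were lower. At that level 0 members were higher at 24 h and 1 at 48 h, against 22.4% and 28.8% of all genes. Between the OFF groups 10 of the 26 were lower and 0 higher, against 15.8% and 14.5%. In bulk RNA, fewer cells of a type and less RNA per cell cannot be told apart.

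**Figure D1:**
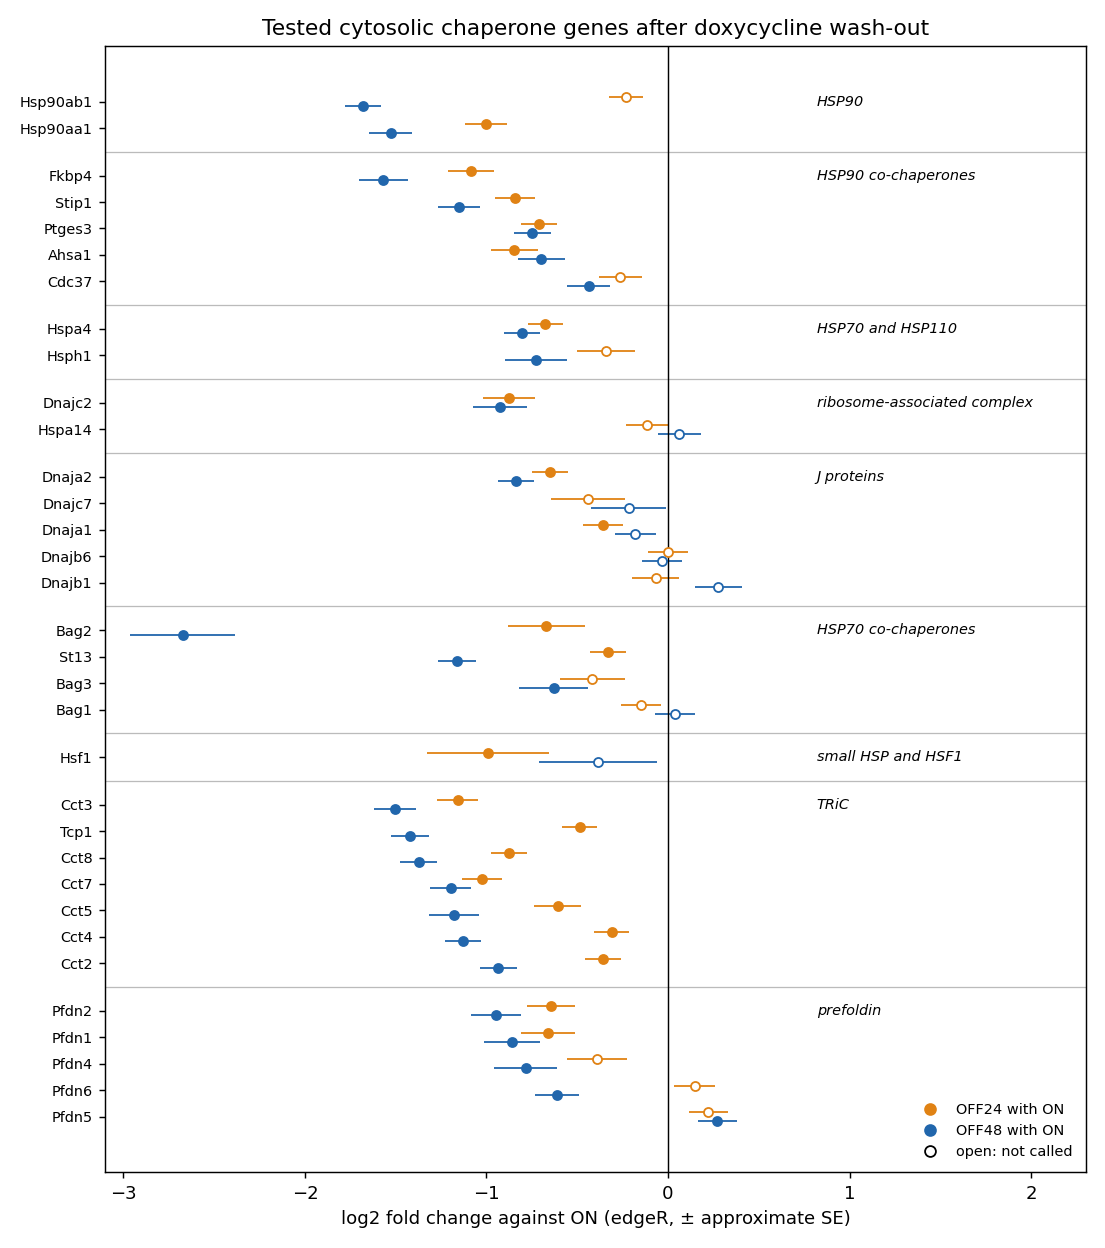
Log2 fold change against ON (x axis, edgeR, bars are the approximate SE) of each tested member at 24 h (orange) and 48 h (blue), grouped by machine; filled points are called and open points are not. All 7 TRiC subunits lie left of 0 at both times, while Bag1, Dnajb6 and Hspa14 stay near 0.

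The machines differed in how far and how early their genes fell. Summed over its genes, the HSP90 pair had 6297 ± 177 CPM in ON (SD, n = 3), which was 4733 ± 299.8 after 24 h and 2027 ± 211 after 48 h, or 75.2% and 32.2% of the ON mean. TRiC went from 2441 ± 111 to 1507 ± 57.2 and 1035 ± 62.4 CPM, or 61.7% and 42.4%. The HSP90 co-chaperones stood at 60.3% of ON at 24 h and 58.2% at 48 h, and the J proteins at 83.8% and 85.3%. Prefoldin stood at 93.1% and 81.9%. Its most abundant gene, Pfdn5, was not called lower at either time and made up 176 of 449 CPM in ON. In OFF48 Pfdn5 made up 213 of 368 CPM, so the prefoldin sum follows it in large part. The median log2 change of the 5 prefoldin genes was -0.39 at 24 h and -0.78 at 48 h. The sums of all machines follow their most abundant genes and are given as a description, with no test. The HSP70 co-chaperones stood at 80.0% and 54.0%, and the HSP70 and HSP110 genes, without Hspa8, at 65.1% and 57.9%. Nearly all of that last sum was the HSP110 genes Hspa4 and Hsph1, at means of 173 and 32.4 CPM in ON. Hspa1a and Hspa1b had 0.405 and 2.82 CPM there, so the sum says little about HSP70 itself. The sums of HSP90, TRiC, the HSP70 co-chaperones and the HSP70 and HSP110 genes were lower in every OFF48 library than in any OFF24 library. The OFF24 and OFF48 ranges of the HSP90 co-chaperones, the J proteins, prefoldin and the ribosome-associated complex overlapped.

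**Figure D2:**
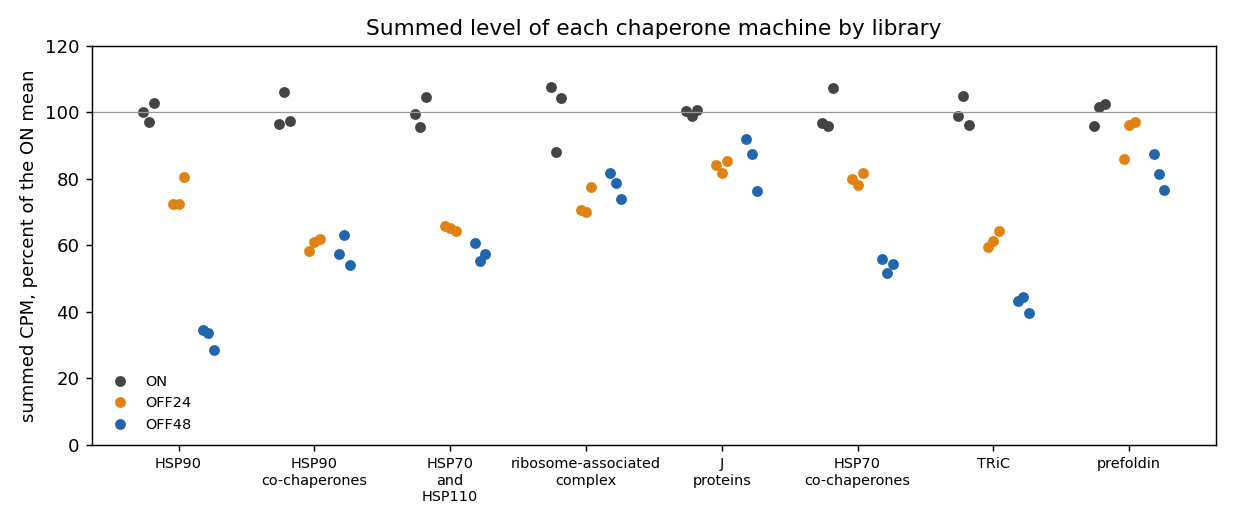
Summed CPM of the genes of each machine in each library, as a percent of the mean of the 3 ON libraries (y axis), for ON (grey), OFF24 (orange) and OFF48 (blue). The libraries form 3 separate steps for HSP90, TRiC, the HSP70 co-chaperones and the HSP70 and HSP110 genes. The HSP70 and HSP110 sum is nearly all Hspa4 and Hsph1, and Pfdn5 is the largest part of the prefoldin sum. The OFF24 and OFF48 points of the HSP90 co-chaperones, J proteins, prefoldin and ribosome-associated complex overlap.

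The pair of cytosolic HSP90 genes fell on different schedules. Hsp90aa1, the stress-inducible form, stood at 1893, 1660 and 1825 CPM in the ON libraries, at 1001, 740 and 947 in OFF24 and at 690, 628 and 548 in OFF48. Every OFF24 library was below every ON library, and every OFF48 library below every OFF24 library. The log2 changes were -1.0 ± 0.12 (SE) at 24 h and -1.53 ± 0.12 at 48 h (edgeR adjusted p = 2.44e-06 and 4.66e-09). Hsp90ab1, the constitutive form, stood at 4404, 4459 and 4648 CPM in ON, at 3562, 3818 and 4132 in OFF24 and at 1488, 1489 and 1238 in OFF48. The OFF24 libraries were just under the ON range and the OFF48 libraries far under it. Its log2 change was -0.23 ± 0.10 at 24 h, which was not called (edgeR adjusted p = 0.0676), and -1.68 ± 0.10 at 48 h (1.13e-10). Between the OFF groups Hsp90ab1 fell by 1.45 ± 0.10 and Hsp90aa1 by 0.53 ± 0.12 on the log2 scale (edgeR adjusted p = 2.51e-09 and 0.00306). The 24 h value of Hsp90ab1 lay at the threshold. It passed without OFF48 replicate 2 (edgeR adjusted p = 0.0405) or replicate 3 (0.0301), with library-size scaling (0.0468), with no filter on low counts (0.0324) in a fit to ON and OFF24 alone (0.0312) and with a replicate block (0.0338).

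The log2 ratio of Hsp90aa1 to Hsp90ab1, taken within each library from CPM plus 0.5, varied in step with this. It was -1.22, -1.43 and -1.35 in ON, -1.83, -2.37 and -2.12 in OFF24 and -1.11, -1.24 and -1.17 in OFF48. The OFF24 libraries were all below those of the other groups, and the ON and OFF48 ranges overlapped. The mean ratio was 0.78 lower in OFF24 than in ON, 0.93 higher in OFF48 than in OFF24 (exact two-sided permutation p = 0.10 for both, the smallest that 3 against 3 allows) and 0.15 higher in OFF48 than in ON (exact permutation p = 0.20). The exact permutation test cannot reach 0.05 with 3 against 3. In mm10 (GRCm38, GENCODE M21), Hsp90aa1 lies on chromosome 12 from 110690605 to 110702728 and Hsp90ab1 on chromosome 17 from 45567775 to 45573271, both on the minus strand. The last 400 bases of Hsp90ab1 transcripts match those of 1 other annotated gene, Gm6368, at 95% identity or more, so the Hsp90ab1 level is uncertain where reads could be split, and no such match was found for Hsp90aa1.

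**Figure D3:**
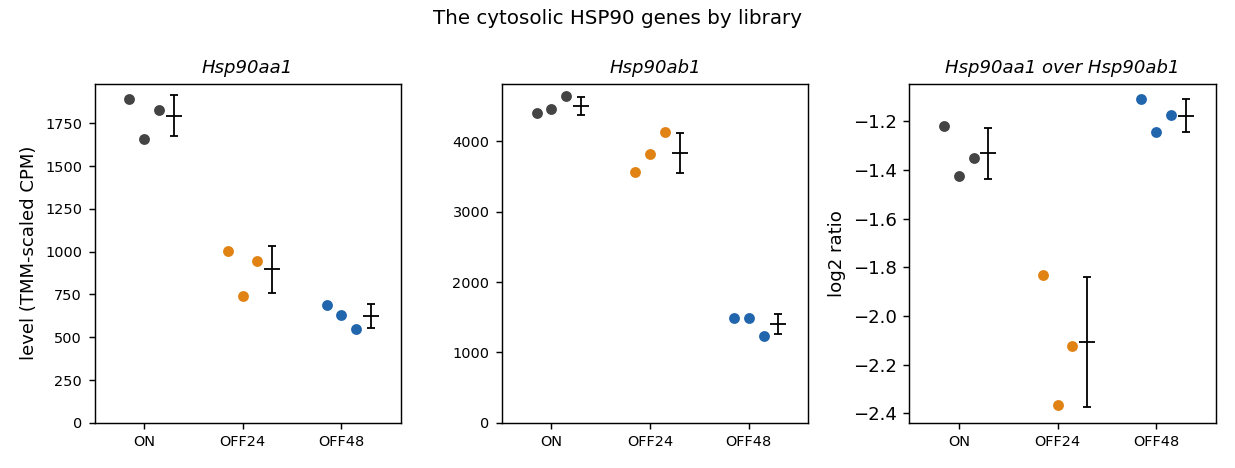
Level of Hsp90aa1 and Hsp90ab1 (TMM-scaled CPM) and the log2 ratio of Hsp90aa1 to Hsp90ab1 in each library; points are libraries and bars the mean ± SD of 3. Hsp90aa1 drops mostly by 24 h and Hsp90ab1 mostly after it, and the ratio is lowest in the OFF24 libraries.

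Of the 5 HSP90 co-chaperones, 4 were lower at 24 h and all at 48 h, where 17.4% and 23.9% of all tested genes were called lower. Their medians were -0.84 at 24 h and -0.75 at 48 h on the log2 scale. Fkbp4, an immunophilin of steroid receptor complexes, stood at 135, 128 and 132 CPM in ON, at 62.7, 56.2 and 66.7 in OFF24 and at 53.0, 33.0 and 43.2 in OFF48. Its 3 groups did not overlap, and its log2 changes of -1.09 ± 0.13 (SE) and -1.57 ± 0.13 were the largest of this machine (edgeR adjusted p = 2.58e-06 and 1.94e-08). Stip1, which bridges HSP70 and HSP90, stood at 113, 139.8 and 121 CPM in ON, at 69.8, 67.2 and 71.8 in OFF24 and at 54.3, 59.2 and 56.0 in OFF48. All OFF libraries were below the ON range, with log2 changes of -0.84 ± 0.11 and -1.15 ± 0.12 (edgeR adjusted p = 1.02e-05 and 1.49e-07).

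Ptges3, also known as p23, holds HSP90 in its closed state. It stood at 310.4, 289.6 and 284 CPM in ON, at 194, 165 and 181 in OFF24 and at 175, 166 and 185 in OFF48. The OFF24 and OFF48 libraries overlapped and all were below ON (log2 -0.71 ± 0.10 and -0.75 ± 0.10, edgeR adjusted p = 1.85e-05 and 5.72e-06). Ahsa1, which stimulates the HSP90 ATPase, went from 402 ± 39.5 CPM in ON to 223 ± 23.4 and 250.1 ± 49.1 (SD, n = 3), with 1 annotated gene sharing its 3' end. Cdc37, which loads kinases onto HSP90, moved least. It went from 176 ± 16.7 CPM to 146 ± 13.3 and 132 ± 20.2 and was called at 48 h (log2 -0.44 ± 0.12, edgeR adjusted p = 0.00546). At 24 h Cdc37 was not called (log2 -0.26, 95% interval -0.51 to -0.02, edgeR adjusted p = 0.0887). It passed at 24 h without OFF48 replicate 2 (0.0405) or with no filter on low counts (0.0449). It also passed in a fit to ON and OFF24 alone (0.0445) and with a replicate block (0.0267). Between the OFF groups, Fkbp4 was called (log2 -0.48 ± 0.14, edgeR adjusted p = 0.0203). That call was lost without OFF24 replicate 1 (0.0651) or 3 (0.114), or OFF48 replicate 2 (0.0789) or 3 (0.0804). Stip1 was not called there (log2 -0.31 ± 0.12, edgeR adjusted p = 0.0795) but passed with upper quartile scaling (0.0457) and with limma on the deposited log2 values (0.0386).

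Of 14 other HSP90 partners tested, 5 were called lower and 1 higher at 24 h, against 17.4% and 17.8% of all tested genes. At 48 h 7 were lower and 2 higher, against 23.9% and 23.4%. Nudcd2, which aids HSP90 clients, went from 87.1 ± 7.80 to 40.6 ± 4.61 and 34.8 ± 4.35 CPM (SD, n = 3), and the cyclophilin Ppid from 102 ± 5.21 to 44.9 ± 4.0 and 46.2 ± 11.1 CPM. Fnip1, a folliculin partner that slows the HSP90 ATPase, moved the other way, from 103 ± 12.8 to 145 ± 7.53 and 217 ± 43.4 CPM. Its log2 changes were 0.48 ± 0.13 (SE) at 24 h and 1.05 ± 0.13 at 48 h (edgeR adjusted p = 0.00736 and 2.31e-06, and 0.0604 at 24 h without ON replicate 1).

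The stress-inducible HSP70 genes were close to the floor in every group. Hspa1a had 1, 1 and 2 counts in ON, 2, 3 and 2 in OFF24 and 3, 5 and 1 in OFF48. Hspa1b had 10, 11 and 9 counts in ON, 4, 6 and 1 in OFF24 and 6, 4 and 0 in OFF48. Neither passed the filter. With no filter on low counts neither was called against ON, the lowest edgeR adjusted p being 0.172, for Hspa1b at 24 h. Hspb1, the inducible small HSP that holds unfolded proteins for refolding, had 0 to 10 counts in 8 libraries and 46 in OFF48 replicate 3, or 13.4 CPM. The 3' end of Hspb1 is shared with Hsp25-ps1, so its level is uncertain. OFF48 replicate 3 also had the highest counts of the stromal gene Col1a1 (15) and of Kit, the stem cell factor receptor (19), and the part of other cells or of that library in the Hspb1 value was not tested. With no filter on low counts Hspb1 was called higher at 24 h (edgeR adjusted p = 0.0467) and at 48 h (1.18e-05). The 48 h call was lost when OFF48 replicate 3 was also left out (0.321), an alternative chosen after seeing the data, and the 24 h call was kept (0.0265).

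Hsf1 itself was low. It stood at 11.7, 11.3 and 6.80 CPM in ON, at 2.09, 5.02 and 7.45 in OFF24 and at 6.04, 6.0 and 10.2 in OFF48, and the groups overlapped. It was called lower at 24 h (log2 -0.99 ± 0.34, SE, edgeR adjusted p = 0.0279), a call lost without ON replicate 1 (0.0953) or 2 (0.0686) or OFF24 replicate 1 (0.114) or 2 (0.0768). At 48 h it was not called (log2 -0.39, 95% interval -1.06 to 0.29, edgeR adjusted p = 0.344).

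The heat shock element, the repeated unit that HSF1 binds, was looked for in RefSeq promoters (GRCm38.p6, 250 bases before to 50 after the start site). The reference held these for 30 of the 38 members, and for 0 of the HSP90 genes. A member counts if any of its promoters matches, whereas the percentages are of single promoters, so they are not on the same unit. The short form GAANNTTC, which reads the same on both strands, was in the promoters of 9 of these members and in 7.86% of 32851 promoters. The longer form has 3 units, GAA, TTC and GAA or TTC, GAA and TTC, with 2 bases of any kind between units. The first is the second read on the other strand, each contains the short form, and one or the other was in 2 members, Hsph1 and Dnajb6, and in 0.603% of promoters. The E-box CACGTG, the site bound by MYC and its partners, was in 1 member, Hsph1, and in 7.15% of promoters. Windows that lie before a start site and outside annotated exons are shown for the barely expressed inducible genes and for a TRiC subunit, with the match in capitals, on the gene's own strand:
Hspa1a (chr17:34972227-34972286, minus strand): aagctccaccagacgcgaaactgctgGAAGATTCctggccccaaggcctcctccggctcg
Hspa1b (chr17:34959309-34959368, minus strand): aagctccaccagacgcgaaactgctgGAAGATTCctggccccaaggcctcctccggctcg
Hspb1 (chr5:135887776-135887835, plus strand): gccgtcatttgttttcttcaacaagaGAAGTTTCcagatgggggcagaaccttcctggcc
Cct2 (chr10:117063384-117063443, minus strand): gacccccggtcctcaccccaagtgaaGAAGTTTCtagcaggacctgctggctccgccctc
The Hspa1a and Hspa1b windows have the same letters, the first base of the match being 104 bases before the start site in both. Hspb1 holds a match that starts 117 bases before its start site, in capitals above. Another, GAACCTTC, starts at 97 bases before it and stands in lower case in the same window. In Cct2 the match starts 42 bases before an alternative RefSeq start that lies within the gene. The promoter of the other Cct2 start holds no heat shock element of either form. Among the members with a promoter match were ones that fell (Fkbp4, Cct2) and one that was not called at either time (Dnajb6), and a match is a description of the letters, not of binding.

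Of the tested HSP110 proteins, which act as exchange factors for HSP70, both were lower at 48 h, where 23.9% of all tested genes were. Hspa4 stood at 174, 165 and 179 CPM in ON, at 107, 111 and 106 in OFF24 and at 104, 94.5 and 97.1 in OFF48. Its groups did not overlap, and its log2 changes were -0.68 ± 0.10 (SE) and -0.80 ± 0.10 (edgeR adjusted p = 3.02e-05 and 2.33e-06). Hsph1, known as HSP105, stood at 30.4, 31.4 and 35.4 CPM in ON, at 28.0, 21.7 and 27.1 in OFF24 and at 19.5, 14.2 and 22.2 in OFF48. All OFF libraries were below ON, but it was called only at 48 h (log2 -0.73 ± 0.17, edgeR adjusted p = 0.00168) and not at 24 h (log2 -0.34, edgeR adjusted p = 0.107).

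The ribosome-associated complex, which meets chains as they leave the ribosome, split. Its J protein Dnajc2 stood at 111, 101 and 117 CPM in ON, at 56.4, 53.7 and 67.9 in OFF24 and at 66.1, 66.7 and 43.4 in OFF48. The OFF groups overlapped each other and both lay below ON (log2 -0.88 ± 0.14 and -0.93 ± 0.15, SE, edgeR adjusted p = 0.000109 and 4.14e-05), and 1 annotated gene shares its 3' end. Its HSP70 partner Hspa14 stood at 119, 87.7 and 107 CPM in ON, at 94.5, 96.4 and 98.0 in OFF24 and at 109, 102 and 115 in OFF48. Those groups overlapped with ON, and the log2 changes were -0.12 (95% interval -0.36 to 0.13) and 0.06 (-0.18 to 0.31). The intervals of the partners do not overlap at either time, since that of Dnajc2 ran from -1.18 to -0.58 at 24 h and from -1.23 to -0.62 at 48 h, but the difference between them was not tested.

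Among the J proteins, Dnaja2 was the one called lower at both times. It stood at 251, 259 and 226 CPM in ON, at 151, 156 and 162 in OFF24 and at 139.6, 141 and 132 in OFF48. The groups did not overlap (log2 -0.65 ± 0.10 and -0.84 ± 0.10, SE, edgeR adjusted p = 4.05e-05 and 1.16e-06). Dnaja1, a close relative that also serves HSP70, stood at 202, 168 and 189 CPM in ON, at 147, 143 and 146 in OFF24 and at 188, 144 and 159 in OFF48. It was called at 24 h (log2 -0.36 ± 0.11, edgeR adjusted p = 0.0163, but 0.0734 without ON replicate 1 and 0.0514 without OFF24 replicate 2) and not at 48 h (log2 -0.18, 95% interval -0.41 to 0.05), when it overlapped ON. Exons of Smu1 on the opposite strand overlap its end.

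The stress-inducible J protein Dnajb1, the classic partner of inducible HSP70, stood at 41.8, 43.5 and 55.1 CPM in ON, at 45.2, 44.9 and 42.9 in OFF24 and at 58.0, 56.2 and 54.5 in OFF48. It was not called at either time (log2 -0.07 and 0.28, edgeR adjusted p = 0.713 and 0.0869), though it was called higher at 48 h without ON replicate 3 (0.0237). It was also called higher in OFF48 than in OFF24 without ON replicate 2 (0.0493, against 0.0724 with all libraries). Dnajb6, which suppresses aggregation, stayed at 384 ± 16.1, 384 ± 22.3 and 376 ± 57.0 CPM (SD, n = 3), with 95% intervals of the log2 change of -0.23 to 0.23 at 24 h and -0.26 to 0.20 at 48 h. Its counts equal those of the row Gm5917 in all libraries, and 7 annotated genes share its 3' end, so its level is uncertain. Dnajc7, whose TPR repeats bind both HSP70 and HSP90, went from 69.9 ± 12.9 to 50.9 ± 15.2 and 62.2 ± 14.3 CPM and was not called (edgeR adjusted p = 0.112 and 0.416), except at 24 h without OFF24 replicate 3 (0.0460), with no filter on low counts (0.00329) or with a replicate block (0.0071).

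Of 11 other J proteins tested, 2 were called lower and 1 higher at 24 h, and 1 lower and 4 higher at 48 h. Among all tested genes 17.4% and 17.8% were lower and higher at 24 h, and 23.9% and 23.4% at 48 h. Dnajc13, an endosomal J protein, went from 39.5 ± 1.82 to 58.7 ± 5.91 and 76.9 ± 4.20 CPM (SD, n = 3). Dnajc9, a histone chaperone, stood at 96.5 ± 1.40, 94.0 ± 4.25 and 134 ± 12.7 CPM. Dnajc5, a J protein of secretory vesicles, went from 212 ± 18.7 to 243 ± 12.7 and 296 ± 62.9 CPM and was called at 48 h only (log2 0.47 ± 0.13, SE, edgeR adjusted p = 0.00550).

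The HSP70 co-chaperones held the deepest fall of all members. Bag2, which restrains the ubiquitin ligase CHIP on HSP70, stood at 29.6, 19.9 and 27.6 CPM in ON, at 20.5, 15.7 and 12.8 in OFF24 and at 5.03, 1.5 and 4.08 in OFF48. OFF24 overlapped ON and OFF48 lay far below both. The OFF48 libraries held 15, 2 and 14 counts, that of replicate 2 being under the floor of 3, so the size of the fall is limited by depth. The log2 change of Bag2 was -2.67 ± 0.29 (SE) at 48 h and -2.0 ± 0.31 between the OFF groups (edgeR adjusted p = 3.27e-07 and 0.000124). At 24 h it was -0.67 ± 0.21 (edgeR adjusted p = 0.0202), a call lost without ON replicate 1 (0.0909) or 3 (0.0535) or OFF24 replicate 2 (0.0611) or 3 (0.113). That call was also lost with limma on the deposited log2 values (adjusted p = 0.106).

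St13, which stabilises HSP70 in its ADP-bound form, stood at 274, 275 and 321 CPM in ON, at 225, 227 and 239 in OFF24 and at 140.2, 119 and 127 in OFF48. Its groups formed 3 separate steps, with most of the fall after 24 h. The log2 change was -0.33 ± 0.10 (SE) at 24 h (edgeR adjusted p = 0.0156, but 0.0844 without ON replicate 3 and 0.0503 without OFF24 replicate 2), -1.16 ± 0.11 at 48 h (3.83e-08) and -0.83 ± 0.11 between the OFF groups (1.34e-05). Bag3, which links HSP70 to small HSPs and autophagy, stood at 25.3, 24.3 and 25.8 CPM in ON, at 21.7, 15.4 and 19.7 in OFF24 and at 14.1, 22.5 and 14.9 in OFF48. All OFF libraries were below ON. It was called at 48 h (log2 -0.63 ± 0.19, edgeR adjusted p = 0.0106, but 0.0675 without OFF48 replicate 1 and 0.0638 without replicate 3) and not at 24 h (0.0793, and 0.0457 without OFF48 replicate 2). Bag1, an exchange factor, stayed at 70.7 ± 4.16, 63.9 ± 1.48 and 72.5 ± 4.41 CPM, with 95% intervals of -0.38 to 0.08 and -0.19 to 0.27.

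Of 6 other HSP70 and exchange factor genes tested, 1 was called lower at 24 h and 2 at 48 h, where 17.4% and 23.9% of all tested genes were. The 48 h call of Bag5, an exchange factor of HSP70, was lost without ON replicate 1 (edgeR adjusted p = 0.0597) or 3 (0.0600) or OFF48 replicate 1 (0.0727) or 3 (0.0574). Hspa13, a microsomal HSP70 relative, was called lower at 48 h without ON replicate 3 (0.0459) or OFF48 replicate 2 (0.0117). Hspbp1, an exchange factor, went from 15.4 ± 2.29 to 6.13 ± 1.05 and 6.54 ± 2.13 CPM (SD, n = 3). Of 3 other small HSP and heat shock factor genes tested, Hspb8 was called lower at both times. Hspb8, the partner of Bag3, went from 827 ± 41.9 to 625 ± 17.4 and 454 ± 22.6 CPM (log2 -0.40 ± 0.09 and -0.87 ± 0.09, SE, edgeR adjusted p = 0.00197 and 3.04e-07). Hsf2, the second heat shock factor, stayed at 26.2 ± 0.648, 24.7 ± 4.93 and 23.3 ± 2.21 CPM.

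TRiC was the machine in which every tested subunit was called at both times. All 7 were lower at 24 h and at 48 h, where 17.4% and 23.9% of all tested genes were called lower, and the median log2 change was -0.61 and -1.20. The subunits fell unevenly by 24 h and came closer together by 48 h, their log2 changes running from -1.16 to -0.31 at 24 h and from -1.5 to -0.93 at 48 h. Cct3 stood at 158, 161 and 164 CPM in ON, at 68.6, 72.8 and 74.5 in OFF24 and at 60.1, 45.0 and 61.2 in OFF48. Its groups did not overlap, and most of the fall was present by 24 h (log2 -1.16 ± 0.11 at 24 h and -1.5 ± 0.12 at 48 h, SE, edgeR adjusted p = 2.86e-07 and 4.79e-09). Cct7 showed the same order, going from 659 ± 15 to 324 ± 29.8 and 289 ± 40.5 CPM (SD, n = 3).

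Tcp1, Cct4 and Cct2 fell less at first. Tcp1 stood at 363, 412 and 371 CPM in ON, at 265, 264 and 289 in OFF24 and at 139, 155 and 136 in OFF48. Its groups were again apart, but the step from 24 h to 48 h (log2 -0.93 ± 0.10, SE, edgeR adjusted p = 2.13e-06) was larger than that from ON to 24 h (-0.49 ± 0.10, 0.000773). Cct4 went from 315 ± 26.8 to 254 ± 5.22 and 144 ± 4.66 CPM (SD, n = 3), and its 24 h call (log2 -0.31 ± 0.10, edgeR adjusted p = 0.0177) was lost without OFF24 replicate 3 (0.0612). Cct2 went from 246 ± 20.4 to 192 ± 12.4 and 129 ± 1.53 CPM.

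Cct8 and Cct5 lay between. Cct8 stood at 503, 472 and 449 CPM in ON, at 245, 249.5 and 281 in OFF24 and at 196, 182 and 172 in OFF48. No library of a group overlapped another group (log2 -0.88 ± 0.10 and -1.37 ± 0.10, SE, edgeR adjusted p = 1.86e-06 and 2.76e-09). Cct5 went from 203 ± 28.7 to 133 ± 7.20 and 92.0 ± 19.9 CPM (SD, n = 3). Between the OFF groups, Tcp1, Cct4, Cct2, Cct5 and Cct8 were called lower at 48 h, with log2 changes of -0.93, -0.82, -0.58, -0.57 and -0.50. Among all tested genes 11.2% were called lower between the OFF groups. The Cct5 call was lost without OFF48 replicate 3 (edgeR adjusted p = 0.0526). Cct3 (log2 -0.35, 95% interval -0.60 to -0.09, edgeR adjusted p = 0.0518) and Cct7 (log2 -0.17, -0.41 to 0.06, 0.288) were not called between the OFF groups. Cct3 passed there with a replicate block (edgeR adjusted p = 0.0305), with upper quartile scaling (0.0310) and with limma on the deposited log2 values (0.0209).

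The log2 ratio of Cct3 to Tcp1 within a library, chosen after the values were seen and given with no test, was -1.20, -1.35 and -1.18 in ON, -1.94, -1.85 and -1.95 in OFF24 and -1.20, -1.78 and -1.15 in OFF48. It was lowest in the 3 OFF24 libraries, while OFF48 overlapped ON, and OFF48 replicate 2, the shallowest library, lay near OFF24. None of the 7 subunits shares its 3' end with another gene by the criterion used, but exons of Acat3 and Usp16 on the opposite strand overlap the ends of Tcp1 and Cct8, and the strand setting of the counting is not given in the sources used here. In mm10 Tcp1 lies on chromosome 17 from 12915701 to 12925067 (plus strand), Cct3 on chromosome 3 from 88297116 to 88321767 (plus strand), Cct7 on chromosome 6 from 85451514 to 85468475 (plus strand) and Cct8 on chromosome 16 from 87483326 to 87495873 (minus strand).

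**Figure D4:**
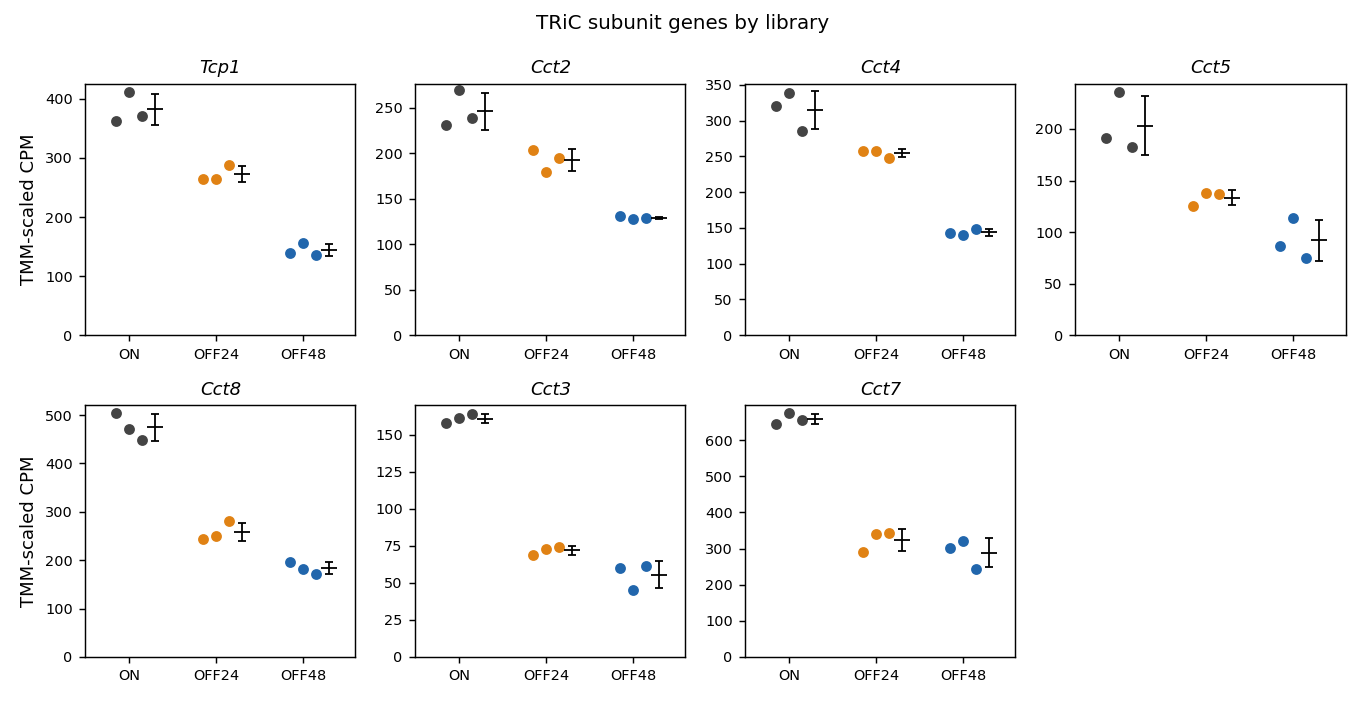
Level (TMM-scaled CPM, y axis from 0) of the 7 tested TRiC subunit genes in each library of ON (grey), OFF24 (orange) and OFF48 (blue), with the mean ± SD of 3 beside the points. Cct3 and Cct7 have most of their fall by 24 h, whereas Tcp1, Cct2 and Cct4 have more of it after.

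In prefoldin, a hexamer, 2 of 5 tested members were called lower at 24 h, where 17.4% of all tested genes were. At 48 h 4 were lower and 1 higher, against 23.9% and 23.4% of all tested genes. Pfdn2 stood at 95.1, 76.1 and 103 CPM in ON, at 52.3, 59.0 and 62.6 in OFF24 and at 52.3, 45.7 and 43.2 in OFF48. Both OFF groups were below ON (log2 -0.64 ± 0.13 and -0.95 ± 0.14, SE, edgeR adjusted p = 0.000778 and 1.24e-05). Pfdn1 stood at 55.6, 75.9 and 62.6 CPM in ON, at 37.6, 36.1 and 48.6 in OFF24 and at 39.9, 33.7 and 32.9 in OFF48. It too was below ON in every OFF library (log2 -0.66 ± 0.15 and -0.86 ± 0.15, edgeR adjusted p = 0.00182 and 0.000140). Pfdn4 went from 44.1 ± 7.36 to 33.7 ± 6.26 and 24.8 ± 4.62 CPM (SD, n = 3) and was called at 48 h (edgeR adjusted p = 0.00103) but not at 24 h (0.0695). It did pass at 24 h without ON replicate 1 (0.0476), OFF24 replicate 3 (0.0275) or OFF48 replicate 2 (0.0414). Pfdn4 also passed then with no filter on low counts (0.026) and with a replicate block (0.0375).

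Pfdn6 and Pfdn5 departed from these. Pfdn6 stood at 73.7, 70.0 and 76.9 CPM in ON, at 86.5, 83.2 and 74.8 in OFF24 and at 53.7, 43.5 and 45.5 in OFF48. OFF24 overlapped ON from above and OFF48 lay below both. The log2 change was 0.15 at 24 h (95% interval -0.09 to 0.39), -0.61 ± 0.12 (SE) at 48 h (edgeR adjusted p = 0.000395) and -0.76 ± 0.12 between the OFF groups (0.000184). Pfdn5, which also binds MYC, went from 176 ± 7.99 to 205 ± 24.2 and 213 ± 14.9 CPM (SD, n = 3) and was the 1 member called higher at 48 h (log2 0.27 ± 0.11, edgeR adjusted p = 0.0435). That call was lost without ON replicate 1 (0.145) or 3 (0.0878), OFF24 replicate 3 (0.0617) or OFF48 replicate 1 (0.115) or 2 (0.0963), with no filter on low counts (0.0941), in a fit to ON and OFF48 alone (0.0579) and with DESeq2 (0.0707). The 3' end of Pfdn5 is shared with Myg1 and Gm5644 and that of Pfdn6 with Gm13612, so both levels are uncertain. On the opposite strand, exons of CR974462.1 overlap the end of Pfdn6 and those of Klhdc9 the end of Pfdn2.

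Vbp1, the remaining prefoldin subunit that stood in the list of other partners, went from 55.1 ± 1.01 to 41.1 ± 3.20 and 33.9 ± 3.11 CPM (SD, n = 3; log2 -0.42 ± 0.12 and -0.72 ± 0.13, SE, edgeR adjusted p = 0.0114 and 0.000123). Of 7 other prefoldin and TRiC partners tested, Vbp1 among them, 3 were called lower at 24 h and 1 at 48 h, against 17.4% and 23.9% of all tested genes. Uri1 and Pdrg1, of the prefoldin-like complex, were the remaining ones called at 24 h (log2 -0.53 ± 0.15 and -0.39 ± 0.12), and Uri1 was called at 48 h without ON replicate 3 (edgeR adjusted p = 0.0400). The Pdrg1 call was lost without ON replicate 1 (edgeR adjusted p = 0.0827) or OFF24 replicate 3 (0.0698) and with DESeq2 (0.0510).

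**Figure D5:**
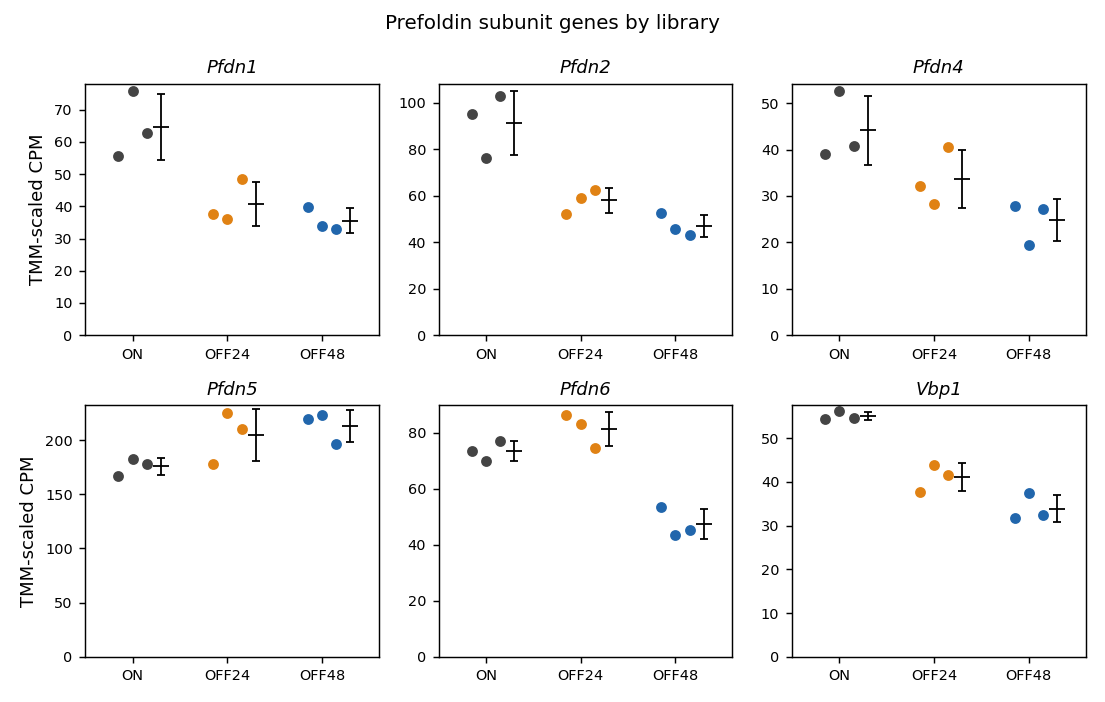
Level (TMM-scaled CPM, y axis from 0) of the 5 prefoldin members and of Vbp1 in each library of ON (grey), OFF24 (orange) and OFF48 (blue), with the mean ± SD of 3 beside the points. Pfdn1, Pfdn2, Pfdn4 and Vbp1 step down, Pfdn6 is low only in OFF48, and Pfdn5 lies at or above its ON level.

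The R2TP complex, an HSP90 partner that assembles large protein complexes, had 2 of 4 genes lower at 24 h, and 3 lower and 1 higher at 48 h. The shares of all tested genes were 17.4% lower at 24 h, and 23.9% lower and 23.4% higher at 48 h. Ruvbl1, its ATPase, went from 61.4 ± 2.53 to 31.2 ± 6.35 and 24.7 ± 3.85 CPM (SD, n = 3), and Rpap3 from 20.7 ± 0.999 to 12.1 ± 1.67 and 10.3 ± 1.22 CPM. The nascent polypeptide-associated complex gave 1 of 3 lower at 24 h and 2 at 48 h, against the same shares of all genes. Its alpha subunit Naca stayed at 458 ± 71.1, 486 ± 56.5 and 462 ± 41.0 CPM, while Btf3, the beta subunit, went from 358 ± 19.9 and 351 ± 9.45 to 263 ± 37.7 CPM at 48 h.

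The actins and tubulins that TRiC folds did not move together. Of 11 tested, 7 were called lower and 1 higher at 24 h, and 6 lower and 2 higher at 48 h, where 17.4% and 17.8%, and 23.9% and 23.4%, of all tested genes were. Tubb6 went from 15.5 ± 1.37 to 3.79 ± 0.992 and 1.60 ± 1.68 CPM (SD, n = 3), and Tuba1b from 2443 ± 409 to 1564 ± 147 and 1285 ± 181 CPM. Tubg1, the gamma tubulin of centrosomes, was lowest at 24 h, at 29.6 ± 2.52 CPM against 65.0 ± 3.54 in ON and 46.5 ± 7.10 in OFF48. Actb, cytoplasmic beta actin, named after its values were seen, went the other way, from 6334 ± 404 in ON and 5875 ± 393 in OFF24 to 9015 ± 698 CPM in OFF48 (log2 0.51 ± 0.09 against ON, SE, edgeR adjusted p = 0.000149). Of the 5 tubulin cofactors, which assemble tubulin dimers after TRiC, 2 were called lower at each time, against 17.4% and 23.9% of all tested genes. At 24 h the Tbcc call was lost without ON replicate 2 (edgeR adjusted p = 0.0880) or 3 (0.0671) or OFF24 replicate 1 (0.0918) or 3 (0.0982). It was also lost with upper quartile scaling (0.0609) and with DESeq2 (0.11), and the Tbcd call was lost without OFF24 replicate 1 (0.0512). At 48 h the Tbcd call was lost without any 1 ON library (0.0696 to 0.0777), OFF24 replicate 2 (0.0553) or 3 (0.0521), or OFF48 replicate 1 (0.228) or 3 (0.119). It was also lost in a fit to ON and OFF48 alone (0.0636), with DESeq2 (0.120) and with limma on the deposited log2 values (0.0801).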

How the data were processed

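The authors deposited raw read counts by gene symbol, 1 column per library, which are whole numbers in every cell. The authors also deposited log2 values, named as voom and limma output, which were used as an alternative only. Libraries were prepared with a Lexogen QuantSeq 3' kit, per the labels' protocols. The submitters' processing notes name HISAT2 2.0.4, Subread 1.5.0-p3 with featureCounts, limma 3.42.2 and mm10, without roles. The annotation, the strand setting and the handling of multi-mapped reads are not given there. Columns were matched to samples by name.

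Tests used edgeR 4.0.16 under R 4.3.3 (filterByExpr by group, TMM scaling, robust quasi-likelihood fit of 1 mean per group to all 9 libraries, 6 residual degrees of freedom, Benjamini-Hochberg over 10215 genes). The code was also run on simulated counts in which all genes had the same spread and few changed. That run cannot show how the fit performs on these data, where far more genes were called. The SE is the log2 change divided by the square root of F, and the 95% intervals rest on it. Ratios used a pseudocount of 0.5 CPM. Between replicates, chi-square over its degrees of freedom was 1.99 to 6.99, above sampling noise. Library depth was 1329296 to 4038456 counts.

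The members and lists were chosen with earlier results of these data known. Values per library are printed for Hsp90aa1, Hsp90ab1, Hspa1a, Hspa1b, Hsf1, Tcp1 and up to 3 members of each machine with the smallest p against ON; up to 3 genes of each other list are named by the same rule. A planned ratio to Hspa8 was not made. Alternatives were RLE, upper quartile and library-size scaling, no filter, DESeq2 1.42.0, a fit to the groups compared, a replicate block, each library left out and, chosen after seeing the data, limma 3.58.1 on the deposited log2 values, and the unfiltered fit without OFF48 replicate 3. Positions and 3' ends come from GENCODE M21 (GRCm38, or mm10); a shared 3' end is a match of at least 100 of the last 400 bases at 95% identity.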

Additional observations from a re-analysis of the deposited data

Results flagged for a closer look

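The change between ON and the OFF libraries differed between the 24 h and 48 h times for 11 members, by the edgeR test of OFF48 with OFF24. Among all tested genes, 11.2% were called lower and 9.99% higher by that test. The log2 difference was -1.45 for Hsp90ab1, -0.53 for Hsp90aa1, -0.48 for Fkbp4, -0.83 for St13 and -2.0 for Bag2. In TRiC it was -0.93 for Tcp1, -0.82 for Cct4, -0.58 for Cct2, -0.57 for Cct5 and -0.50 for Cct8, and in prefoldin it was -0.76 for Pfdn6. Among the named partners the same test was passed by 8 genes. Hspb8 stood at -0.46, Btf3 at -0.41 and Tbca at -0.32, while Fnip1 stood at 0.57, Dnajc9 at 0.52, Dnajc13 at 0.38, Tbcc at 0.66 and Tubg1 at 0.61. The calls of Dnajc13, Btf3 and Tbca were lost without some single libraries, for example without OFF24 replicate 2 (edgeR adjusted p = 0.106, 0.0513 and 0.143). That of Dnajc13 was also lost with DESeq2 (adjusted p = 0.0671). Among the members, the Fkbp4 call was lost without any of several single libraries, for example OFF24 replicate 3 (edgeR adjusted p = 0.114). The Cct5 call was lost without OFF48 replicate 3 (0.0526).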

How the results depend on the processing

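Of 1683 values of single members over 17 alternatives, 1628 kept their side of the threshold, 29 lost the call and 26 gained one. In 0 of them did the direction change with a call in either fit. A change of direction with no call in either fit was counted among the 1628. Of the members called, 16 of 21 at 24 h, 24 of 26 at 48 h and 9 of 11 between the OFF groups were called under every alternative. Leaving out 1 library gave 17 to 25 members lower at 24 h (0 higher), 24 or 25 lower and 0 to 2 higher at 48 h, and 9 to 11 lower and 0 or 1 higher between the OFF groups. Over all genes it gave 1491 to 1987 lower and 1355 to 1913 higher at 24 h, 2115 to 2427 and 2065 to 2418 at 48 h, and 788 to 1193 and 718 to 1217 between the OFF groups. The Hsp90aa1 to Hsp90ab1 log2 ratio then differed by -0.92 to -0.65 at 24 h, 0.11 to 0.21 at 48 h and 0.80 to 1.07 between the OFF groups. Members called higher numbered 1 at 24 h with no filter on low counts, where Hspb1 enters the test. At 48 h they numbered 0 with DESeq2 and with ON and OFF48 fitted alone. Pfdn5 missed the threshold there (DESeq2 adjusted p = 0.0707 and edgeR adjusted p = 0.0579). At 48 h with no filter the 1 higher member was Hspb1 in place of Pfdn5.

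With a replicate block, 25 members were lower at 24 h, 25 at 48 h and 12 between the OFF groups. It called Hsp90ab1 (edgeR adjusted p = 0.0338), Cdc37 (0.0267), Dnajc7 (0.0071) and Pfdn4 (0.0375) at 24 h and Cct3 (0.0305) between the OFF groups. It changed no other member's call. The labels do not say what a replicate number shares. Deviations of same-numbered libraries correlated at -0.01 to 0.41 over 9 pairs, 8 of them positive, and those of others at -0.29 to 0.19. All 3 pairs of ON and OFF48 were over 0.1 (0.11 to 0.41), but only 1 of 3 for ON and OFF24 and 1 of 3 for OFF24 and OFF48, and not every library correlated best with its own number, so pairing was not established for all groups. Genes near the floor (Hspa1a, Hspa1b, Hspb1, Hsf1, and Bag2 in OFF48) are limited by depth.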
